A study of Mus musculus with 12 samples.

Results

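Atf3, Jun, Sprr1a, Gap43, Sox11, Klf6, Basp1, Stmn2, Ecel1 and Hspb1 are genes that neurons switch on or rely on when they regrow an axon. The 10 genes were chosen by name as regeneration-associated neuronal genes, and a gene was measured where a probeset named it and no other gene. Probesets were found for 9 of the 10, among 15830 genes in all. Hspb1, which encodes a small heat shock protein that binds to the cytoskeleton, was named by no probeset and was not analysed here. The 9 measured genes had 79 probesets, with 20 for Jun, 18 for Ecel1, 10 for Stmn2, 8 for Klf6, 6 for Atf3, 5 each for Gap43, Sox11 and Basp1, and 2 for Sprr1a. Gene levels are means of log2 values over the probesets that name the gene, and levels of different genes cannot be set against each other on these arrays.

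When an axon is cut, injury signals travel back to the cell body and switch on transcription factors, among them Atf3 and Jun, which are followed by proteins of the growing axon and its tip. This programme is strong in neurons of the peripheral nervous system and weak in most neurons whose axons stay within the brain and spinal cord. Several of its members are not specific to neurons: Atf3, Jun and Klf6 are also induced in glia, macrophages and vessel cells under stress.

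Spinal cord RNA came from 12 mice on a C57/BL6 background, 3 in each of 4 groups: EphA4 knockout with a hemisection, wild-type with a hemisection, EphA4 knockout with laminectomy only (sham-operated), and wild-type with laminectomy only. The cut was made on the left side of the lumbar cord, and 6 mm around it was taken after 4 days. The knockout was in all cells of the body, EphA4 being a guidance receptor of axons and glia, and wild-type mice were littermates. Mice were 10 weeks old apart from the injured wild-type mouse of replicate 2 at 14.5 weeks and the sham-operated EphA4 knockout mice of replicate 1 at 12 and replicate 2 at 9 weeks, and each group held 2 males and 1 female by the labels. The labels call the sampled left side uninjured and the methods of the study call it injured.

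Each mouse had its own exon array, and array medians lay between 5.79 and 5.85 on the log2 scale. Epha4, the targeted gene, averaged 4.93 ± 0.16 in injured EphA4 knockout and 6.07 ± 0.19 in injured wild-type cords, and 5.17 ± 0.02 in sham-operated EphA4 knockout and 6.67 ± 0.14 in sham-operated wild-type cords (SD, n = 3 each). The sham-operated EphA4 knockout array of replicate 2 is labelled male, but its Y-linked genes Eif2s3y (3.25) and Jarid1d (3.39) stood at the level of the female arrays, so several results are also given without it. Marker lists of pericytes, fibroblasts and meninges were highest in their treatment on the arrays of injured EphA4 knockout replicate 1 (mean level 8.07, other injured arrays 6.63 to 7.30) and sham-operated EphA4 knockout replicate 1 (6.74, other sham-operated arrays 5.44 to 5.98). The skeletal muscle list was highest in injured wild-type replicate 1 (5.87, other arrays 4.07 to 4.52). RNA was extracted in 4 batches, of which batches 1 and 2 hold all groups, while sham-operated EphA4 knockout replicate 1 is alone in batch 3 and injured EphA4 knockout replicate 3 is alone in batch 4.

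Promoter sequences were read for the 4 genes that were most clearly higher after injury (Atf3, Jun, Klf6 and Sprr1a), because Atf3 and Jun are themselves DNA-binding proteins of the bZIP class that pair on short AP-1 and cAMP response (CRE) elements. Each window runs from 250 bases before to 50 bases after a RefSeq start of the gene (GRCm38.p6), and 8 of the 10 genes matched a window. The window of Ecel1 (chr1:87156307-87156606 on the minus strand) lay inside the gene, which spans 87142874 to 87157085. Capitals mark matches, on either strand, to the AP-1 site TGACTCA, the CRE TGACGTCA, the site TGACATCA and the CRE variant TTACGTCA; the last was added after the Atf3 window had been read. The windows are chr1:191183284-191183583 on the minus strand for Atf3, chr4:95052173-95052472 on the minus strand for Jun, chr13:5861239-5861538 on the plus strand for Klf6 and chr3:92485832-92486131 on the minus strand for Sprr1a.
Atf3: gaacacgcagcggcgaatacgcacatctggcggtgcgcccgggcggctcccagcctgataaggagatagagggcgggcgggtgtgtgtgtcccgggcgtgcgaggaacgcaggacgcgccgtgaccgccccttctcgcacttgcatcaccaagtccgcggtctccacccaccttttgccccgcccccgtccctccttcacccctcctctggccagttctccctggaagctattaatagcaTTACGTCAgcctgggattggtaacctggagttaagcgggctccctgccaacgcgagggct
Jun: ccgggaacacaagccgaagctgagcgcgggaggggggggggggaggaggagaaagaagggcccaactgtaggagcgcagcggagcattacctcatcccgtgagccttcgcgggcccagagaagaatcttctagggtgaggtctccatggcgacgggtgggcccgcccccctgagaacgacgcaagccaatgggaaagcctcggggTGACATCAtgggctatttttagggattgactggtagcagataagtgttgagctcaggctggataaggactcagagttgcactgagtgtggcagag
Klf6: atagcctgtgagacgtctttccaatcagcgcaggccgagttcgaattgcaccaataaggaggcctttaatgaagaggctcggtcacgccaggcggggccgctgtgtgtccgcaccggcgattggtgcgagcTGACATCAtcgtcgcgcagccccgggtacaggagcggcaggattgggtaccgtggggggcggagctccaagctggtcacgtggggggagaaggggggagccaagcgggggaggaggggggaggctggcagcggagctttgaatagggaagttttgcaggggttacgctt
Sprr1a: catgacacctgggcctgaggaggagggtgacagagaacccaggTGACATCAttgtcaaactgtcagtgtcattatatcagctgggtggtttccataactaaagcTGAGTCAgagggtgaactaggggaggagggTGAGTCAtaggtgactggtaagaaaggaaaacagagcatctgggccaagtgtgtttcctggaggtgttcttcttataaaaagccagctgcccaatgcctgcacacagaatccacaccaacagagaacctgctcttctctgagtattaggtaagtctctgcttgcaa

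The letters TGACATCA stood in the windows of Jun (45 to 38 bases before the start), Klf6 (119 to 112 bases before it) and Sprr1a (207 to 200 bases before it), and on the opposite strand in that of Sox11 (42 to 35 bases before it). Of all 32851 promoter windows, 3.62% held them. The window of Sprr1a also held the AP-1 site on the opposite strand at 2 places, 146 to 140 and 116 to 110 bases before the start, and 5.2% of all windows held at least 1. TTACGTCA stood 10 to 3 bases before the start of Atf3, and 0.499% of all windows held it. As these letters were added after the Atf3 window had been read, their match there is no test. The full CRE was matched in none of the 8 windows and in 1.79% of all windows. These matches describe letters in a window and not binding.

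To see how the genes answered to injury, injured and sham-operated cords were compared on the mean of both genotypes. The transcription factors Atf3, Jun and Klf6 rose, as did Sprr1a and, less firmly, Ecel1. In this comparison 5 of the 9 measured genes were called higher and none lower, against 12.8% of all genes higher and 17.0% lower, where a call is a Benjamini-Hochberg adjusted p under 0.05 in limma with at least a 1.2-fold change. The growth cone genes Gap43, Basp1 and Stmn2 and the factor Sox11 were not called. The median difference was 0.42 over the 9 genes and -0.08 over all genes. In these bulk samples fewer cells of a type and less RNA per cell cannot be told apart.

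Atf3, a factor of the ATF/CREB family that is scarce in resting neurons and induced by axotomy, had levels of 7.08, 7.06 and 7.50 in injured EphA4 knockout and 7.03, 7.64 and 7.78 in injured wild-type cords. Its levels were 4.26, 4.33 and 4.08 in sham-operated EphA4 knockout and 4.23, 4.01 and 4.64 in sham-operated wild-type cords. All injured arrays lay far above all sham-operated ones, with no value between 4.64 and 7.03. On the mean of both genotypes Atf3 rose by 3.09 on the log2 scale (SE 0.14), or 8.50-fold (limma adjusted p = 4.27e-09), the 28th largest increase of the 15830 genes.

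Jun, the AP-1 subunit that is activated by JNK kinases and dimerises with Atf3, had levels of 7.44, 7.01 and 7.64 in injured EphA4 knockout and 7.46, 7.57 and 7.43 in injured wild-type cords. In sham-operated cords it stood at 6.65, 6.70 and 6.43 in EphA4 knockout and at 6.45, 6.66 and 6.17 in wild-type mice. The groups did not overlap, and injured EphA4 knockout replicate 2 (7.01) was the injured array nearest to the sham-operated ones. Jun rose 1.88-fold (log2 difference 0.91, SE 0.11, limma adjusted p = 3.99e-05).

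Klf6, a Kruppel-like zinc finger factor that promotes axon growth in zebrafish retina and mouse cortical neurons, had levels of 6.90, 6.43 and 6.78 in injured EphA4 knockout and 6.67, 6.46 and 6.74 in injured wild-type cords. Its sham-operated levels were 5.93, 6.18 and 5.95 in EphA4 knockout and 5.80, 5.99 and 5.97 in wild-type mice. As for Jun, injured EphA4 knockout replicate 2 was the lowest injured array and sham-operated EphA4 knockout replicate 2 the highest sham-operated one, but all injured arrays were above all sham-operated arrays. Klf6 rose 1.62-fold (log2 difference 0.69, SE 0.09, limma adjusted p = 8.23e-05).

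Sox11, a SoxC factor of immature and regenerating neurons, did not pass the test. Its levels ran over 4.78 to 5.11 in injured EphA4 knockout, 4.45 to 4.98 in injured wild-type, 4.60 to 4.88 in sham-operated EphA4 knockout and 4.39 to 4.92 in sham-operated wild-type cords, so that all groups overlapped. The log2 difference was 0.15 (SE 0.12, 95% interval -0.10 to 0.41, limma adjusted p = 0.347). Its 5 probesets had mean levels from 3.63 to 8.07, and its estimates depended on the dim ones. Without probesets below the 25th percentile of mean level, the wild-type injury difference was 0.48 (SE 0.29, limma adjusted p = 0.269) against 0.11. The filter kept a bright probeset at percentile 81 and a dim one at percentile 28. In wild-type cords the bright one averaged 7.96 both injured and sham-operated, so the larger difference came from the dim one (4.68 injured, 3.72 sham-operated). With this filter the sham-operated genotype difference was 0.42 against 0.05, and the difference of the injury responses -0.27 against 0.08. Sox11 was not called in these fits.

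Sprr1a, a small proline-rich protein first known from the cornified envelope of skin and one of the genes that axotomised sensory neurons induce most, had levels of 9.08, 9.76 and 10.34 in injured EphA4 knockout and 8.97, 10.94 and 10.38 in injured wild-type cords. In sham-operated cords it stood at 7.44, 8.91 and 6.67 in EphA4 knockout and at 6.44, 6.36 and 7.57 in wild-type mice. The highest sham-operated array, EphA4 knockout replicate 2 at 8.91, lay just below the lowest injured one at 8.97. Sprr1a rose 6.41-fold (log2 difference 2.68 over both genotypes, SE 0.41, limma adjusted p = 0.000220), and by 2.99 without sham-operated EphA4 knockout replicate 2. Its SE was the widest of the 9 genes, and it rests on 2 probesets.

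Ecel1, an endothelin-converting enzyme-like peptidase of neurons that is induced by nerve injury, had levels of 7.77, 7.92 and 8.61 in injured EphA4 knockout and 7.76, 8.19 and 8.39 in injured wild-type cords. Sham-operated levels were 7.86, 8.15 and 7.67 in EphA4 knockout and 7.39, 7.44 and 7.57 in wild-type mice. Injured and sham-operated arrays overlapped, and the overlap came from the EphA4 knockout cords. The difference of 0.42 (SE 0.15, 1.34-fold) passed the test narrowly (limma adjusted p = 0.0414). The call was lost, with adjusted p between 0.0542 and 0.105, in 8 of the 12 fits that left out 1 array (without injured EphA4 knockout replicate 3, injured wild-type replicate 2 or 3, sham-operated EphA4 knockout replicate 1 or 3, or any 1 sham-operated wild-type array), and the lowest difference, 0.30, came without injured EphA4 knockout replicate 3.

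Gap43, the membrane phosphoprotein of growth cones, had levels of 10.40, 10.55 and 10.79 in injured EphA4 knockout and 10.59, 10.70 and 10.79 in injured wild-type cords. In sham-operated cords it stood at 10.57, 10.67 and 10.66 in EphA4 knockout and at 10.10, 10.41 and 10.58 in wild-type mice. The groups overlapped, and the mean difference was 0.14 (SE 0.09, 95% interval -0.07 to 0.34, limma adjusted p = 0.304). Within wild-type mice the injured arrays lay just above the sham-operated ones, as they did for 16.6% of all genes, with a difference of 0.33 (SE 0.13, limma adjusted p = 0.0965). Within EphA4 knockout mice the difference was -0.05 (SE 0.13).

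Stmn2, a stathmin that regulates microtubules in growing axons, had levels of 10.63, 10.74 and 10.68 in injured EphA4 knockout and 10.77, 10.69 and 10.79 in injured wild-type cords. Its sham-operated levels were 10.77, 10.95 and 10.93 in EphA4 knockout and 10.89, 10.97 and 10.80 in wild-type mice. Within each genotype all injured arrays were below all sham-operated arrays, as for 20.7% of all genes in EphA4 knockout and 26.7% in wild-type mice. The mean difference of -0.17 (SE 0.06, 95% interval -0.31 to -0.03) missed the adjusted threshold (limma adjusted p = 0.0595). Basp1, a growth cone protein related in function to Gap43, ran over 7.80 to 8.13 in injured EphA4 knockout, 7.84 to 8.02 in injured wild-type, 8.03 to 8.04 in sham-operated EphA4 knockout and 7.89 to 8.04 in sham-operated wild-type cords. Its difference was -0.04 (SE 0.07, 95% interval -0.20 to 0.11).

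**Figure D1:**
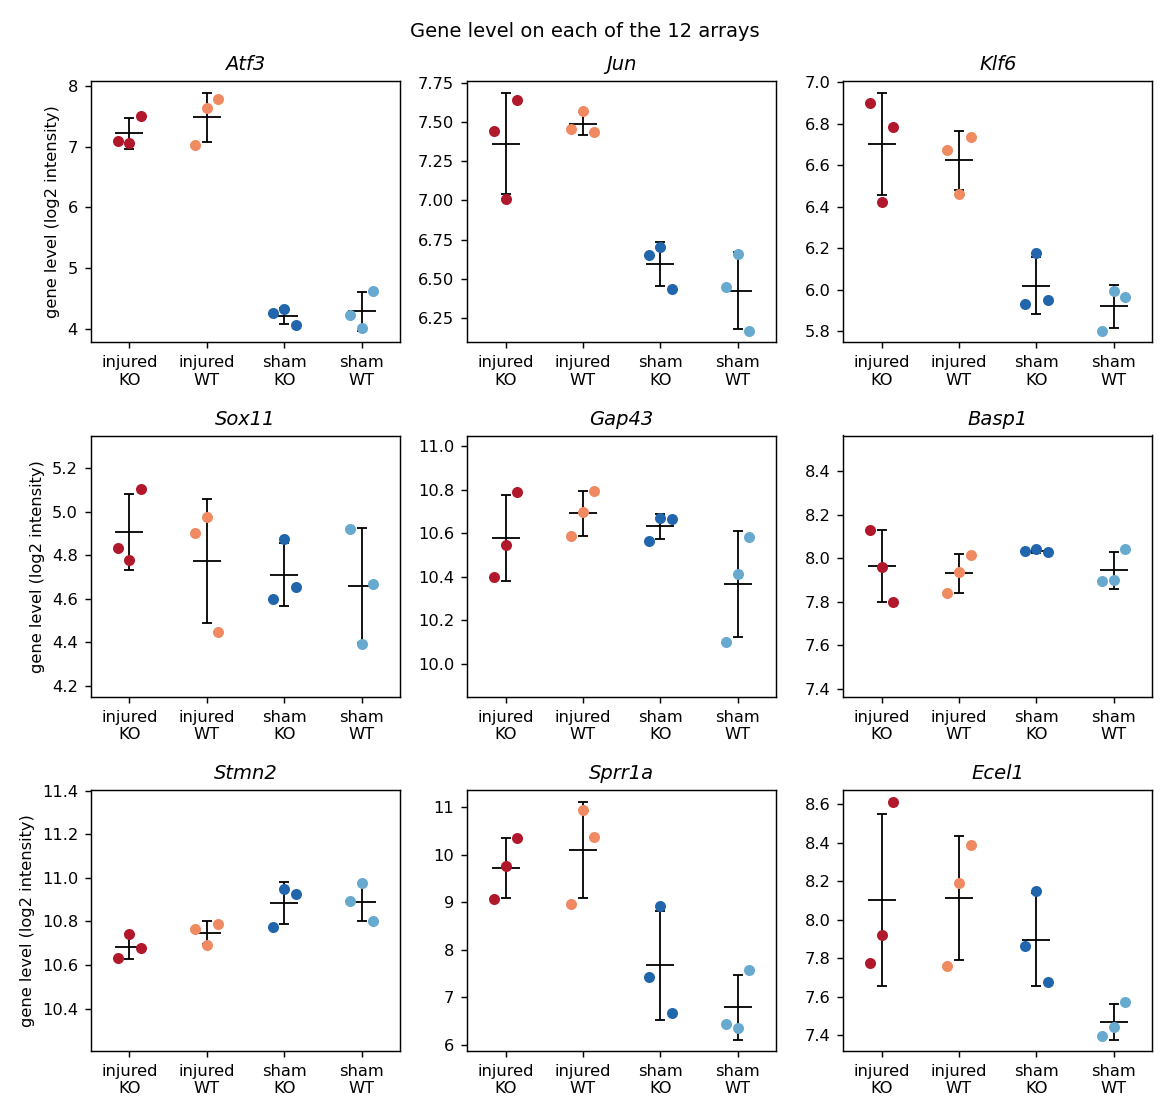
Gene level (log2 intensity, vertical axes scaled per gene) on each array for the 9 measured genes, with points for the 3 mice of each group, horizontal bars for the group mean and error bars for the SD. Injured arrays sit above sham-operated arrays without overlap for Atf3, Jun, Klf6 and Sprr1a, and the groups overlap for the other genes.

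All 6 injured arrays were above all 6 sham-operated arrays for 4 of the 9 genes (Atf3, Jun, Klf6 and Sprr1a), against 8.86% of all genes, and below them for none, against 10.7% of all genes. Single probesets gave a more scattered picture. Of the 79 probesets, 18 had injured arrays wholly above sham-operated arrays and 1, of Stmn2, wholly below, against 4.90% above and 3.20% below among all probesets that name 1 gene. The 18 comprised 9 of the 20 probesets of Jun, 5 of the 6 of Atf3, 2 of the 8 of Klf6, 1 of the 2 of Sprr1a and 1 of the 18 of Ecel1. The differences of the Atf3 probesets ran over 1.38 to 4.25, and all were positive. Jun also had only positive differences, of up to 1.64, and 7 of the 8 Klf6 probesets were positive. The Sprr1a probesets differed by 2.46 and 2.90, so that both showed the rise. Gap43 probesets lay between 0.04 and 0.19, a narrow range, while those of Sox11 lay between -0.24 and 0.64 and were positive for 3 of 5.

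**Figure D2:**
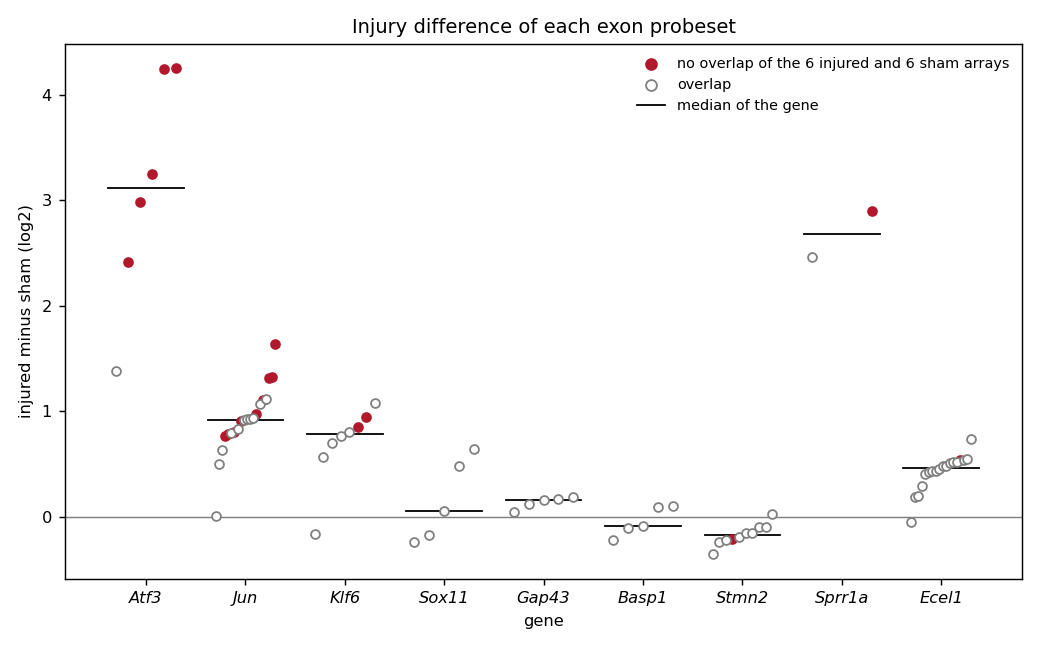
Log2 difference between injured and sham-operated arrays (mean over both genotypes) for each of the 79 exon probesets, grouped by gene, with filled points where the 6 injured and 6 sham-operated arrays do not overlap and a line at the median of each gene. Atf3 probesets span 1.38 to 4.25, while those of Gap43 span 0.04 to 0.19 and those of Stmn2 span -0.36 to 0.03.

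The injury response was then compared in each genotype. In EphA4 knockout cords Atf3 (log2 difference 2.99, SE 0.20), Sprr1a (2.05, SE 0.58), Jun (0.77, SE 0.16) and Klf6 (0.68, SE 0.13) were called higher, 4 of the 9 genes against 8.98% of all genes. With extraction batch as a term 2 of the 9 were called. Jun (0.66, SE 0.19, limma adjusted p = 0.0504) and Sprr1a (1.63, SE 0.61, adjusted p = 0.108) were lost. The batch term fits the lone EphA4 knockout arrays of batches 3 and 4 exactly, so the effect rests on 2 such arrays per treatment. Without the 3 arrays high in meningeal or muscle markers, which also leaves 2 per treatment, 2 were called. Jun (0.76, SE 0.22, limma adjusted p = 0.0607) and Klf6 (0.54, SE 0.17, adjusted p = 0.0742) were then lost. In wild-type cords these 4 were called, Sprr1a at 3.31 (SE 0.58), Atf3 at 3.19 (SE 0.20), Jun at 1.06 (SE 0.16) and Klf6 at 0.70 (SE 0.13), as was Ecel1 at 0.64 (SE 0.21), 5 of the 9 against 11.2% of all genes. Ecel1 differed by 0.21 (SE 0.21, 95% interval -0.25 to 0.66, limma adjusted p = 0.575) in EphA4 knockout cords. The Sprr1a call in EphA4 knockout cords was lost in 4 of the 12 fits without 1 array (without injured replicate 2 or 3 or sham-operated replicate 1 or 3 of the EphA4 knockout, adjusted p between 0.0591 and 0.0959). Without sham-operated EphA4 knockout replicate 2 the EphA4 knockout differences were 3.04 for Atf3, 2.67 for Sprr1a, 0.82 for Jun, 0.76 for Klf6 and 0.33 for Ecel1, and 4 genes were again called. The Ecel1 call in wild-type cords was lost in 6 of the 12 (without injured wild-type replicate 2 or 3, sham-operated EphA4 knockout replicate 1, or any 1 sham-operated wild-type array), with a difference of at least 0.51. Gap43 in wild-type cords was called without sham-operated wild-type replicate 3 (0.43, limma adjusted p = 0.0467).

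**Figure D3:**
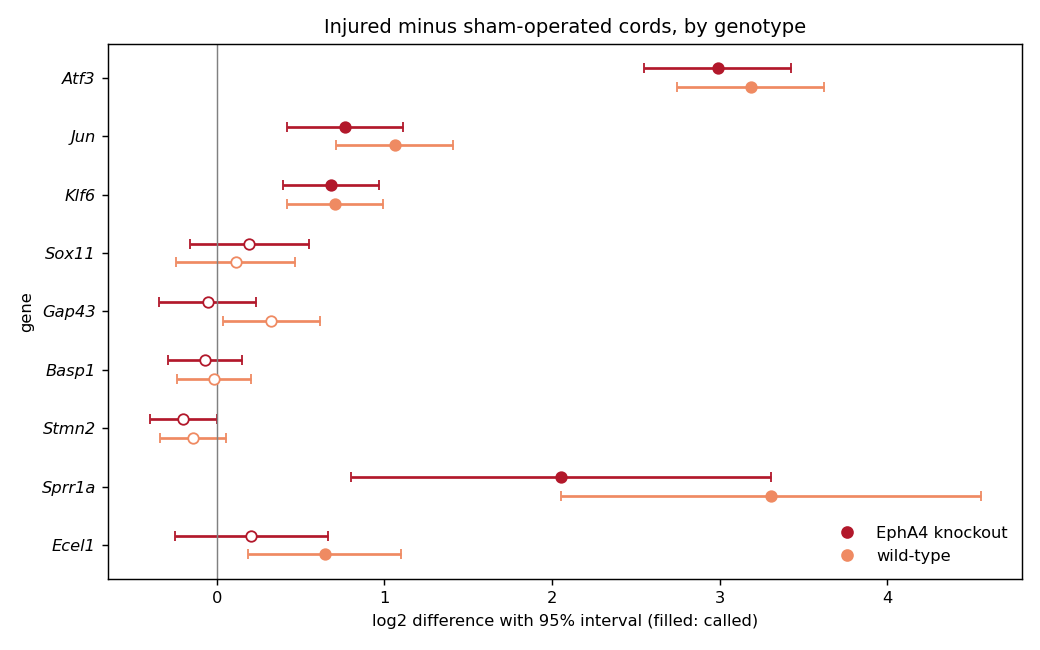
Log2 difference between injured and sham-operated cords within EphA4 knockout and within wild-type mice, with limma 95% intervals; filled points passed the test. Atf3, Jun, Klf6 and Sprr1a are filled in both genotypes and Ecel1 in wild-type mice, and the intervals of the genotypes overlap for each gene.

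Whether the genotypes answered differently to injury was tested by the difference of their injury responses. None of the 9 genes was called at an unadjusted p under 0.01 with at least a 1.2-fold change, against 0.512% of all genes higher and 0.543% lower, and at an unadjusted p under 0.05 there was none either. Among all genes 167 passed this threshold, but no gene reached an adjusted p under 0.05 and 882 had an unadjusted p under 0.05. Sprr1a had the largest estimate at -1.25 (SE 0.82, 95% interval -3.02 to 0.52), and it was -0.63 without sham-operated EphA4 knockout replicate 2. Ecel1 stood at -0.44 (SE 0.30, 95% interval -1.08 to 0.21) and Gap43 at -0.38 (SE 0.19, 95% interval -0.79 to 0.03). Atf3 stood at -0.20 (SE 0.29, 95% interval -0.82 to 0.42) and Jun at -0.29 (SE 0.23, 95% interval -0.78 to 0.20), so that neither a smaller nor an equal response could be read from these arrays. Without sham-operated EphA4 knockout replicate 2 the estimates were -0.31 for Ecel1, -0.36 for Gap43, -0.14 for Atf3 and -0.24 for Jun.

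EphA4 knockout and wild-type cords were also compared within each treatment. Among injured cords 0 of the 9 genes were called by the same thresholds, against 0.133% of all genes higher and 0.663% lower, and 0 reached an unadjusted p under 0.05. Their log2 differences ran over -0.37 for Sprr1a (95% interval -1.44 to 0.70) and -0.27 for Atf3 (95% interval -0.74 to 0.20) to 0.13 for Sox11 (95% interval -0.24 to 0.50). Among sham-operated cords 0 of the 9 passed as well, against 0.373% of all genes higher and 0.973% lower, and 1 reached an unadjusted p under 0.05. That gene was Ecel1, at 7.86, 8.15 and 7.67 in EphA4 knockout and 7.39, 7.44 and 7.57 in wild-type cords, a difference of 0.43 (SE 0.13, 95% interval 0.13 to 0.72) with an unadjusted p of 0.0101 and an adjusted p of 0.737 in limma. All EphA4 knockout arrays were above all wild-type arrays for Ecel1 and for no other of the 9 genes, against 5.43% of all genes. Without sham-operated EphA4 knockout replicate 2 the difference was 0.30, and without replicate 3 it was 0.54 and passed (limma unadjusted p = 0.0032). Ecel1 lies on chromosome 1, 9.63 Mb from the end of Epha4 (GRCm38.p6), and whether DNA that came with the targeted allele takes part in the difference was not tested.

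**Figure D4:**
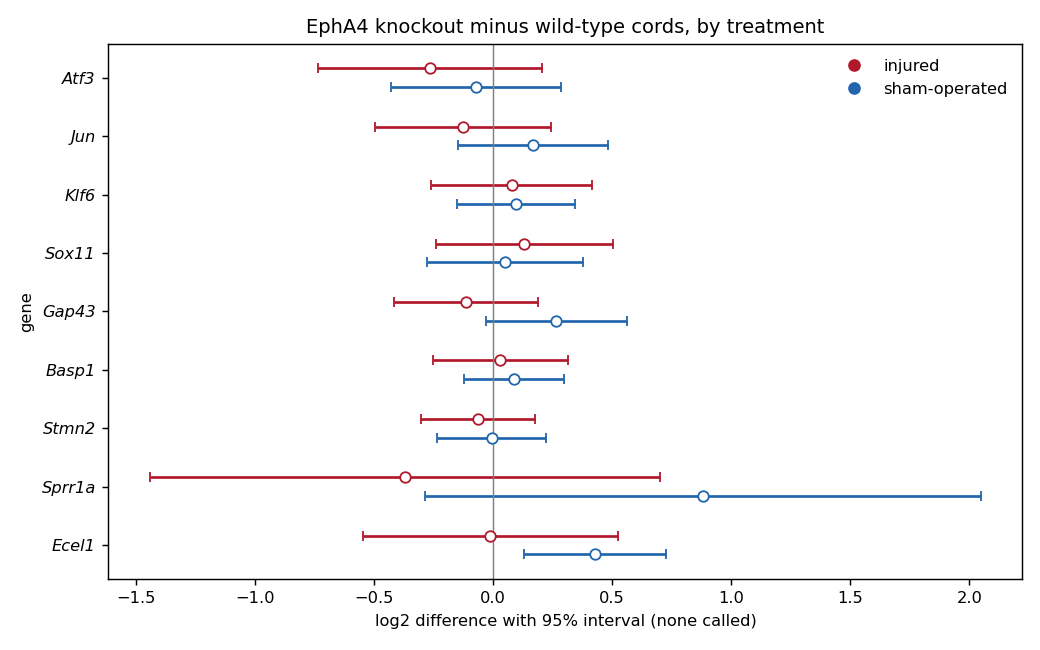
Log2 difference between EphA4 knockout and wild-type cords among injured and among sham-operated mice, with limma 95% intervals; no gene passed the test. Sprr1a has the widest intervals, and the interval of Ecel1 in sham-operated cords, 0.13 to 0.72, lies above 0.

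Sprr1a in sham-operated cords differed by 0.88 (SE 0.52, 95% interval -0.28 to 2.05) between EphA4 knockout and wild-type mice, and by 0.26 without EphA4 knockout replicate 2. Within extraction batches this difference was 2.47 in batch 1, where that array is the only sham-operated EphA4 knockout one, and -0.30 in batch 2. For Ecel1 it was 0.76 in batch 1 and 0.17 in batch 2. The injury difference of Atf3 was 2.73 in EphA4 knockout and 3.47 in wild-type cords of batch 1, and 3.01 in EphA4 knockout and 2.70 in wild-type cords of batch 2. Jun differed by 0.31 in EphA4 knockout and 1.06 in wild-type cords of batch 1, and by 1.00 in EphA4 knockout and 1.04 in wild-type cords of batch 2. In EphA4 knockout cords Sprr1a differed by 0.85 in batch 1 and 2.41 in batch 2, Klf6 by 0.25 and 0.95, and Ecel1 by -0.23 and 0.10, so that these genes and Jun had their smaller EphA4 knockout values in batch 1. Each of these values rests on 1 or 2 arrays a group. In batch 1 the EphA4 knockout values set injured replicate 2 alone against sham-operated replicate 2 alone. The latter is the array labelled male whose Y-linked genes stood at the female level. It was the highest sham-operated array for Jun, Sprr1a, Klf6 and Ecel1.

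Whether genes varied together between arrays of 1 treatment was tested over the 36 pairs of the 9 genes in each treatment. Of these 72 tests none passed after adjustment (smallest adjusted p = 0.608 for r and 0.529 for rho, exact permutation). The orders of 6 arrays are too few for a single pair to reach an adjusted p under 0.05, however strong its correlation. No conclusion on joint variation is drawn from this test. Among the injured arrays Sprr1a was lowest on wild-type replicate 1 (8.97) and EphA4 knockout replicate 1 (9.08), and Ecel1 was lowest on these same arrays (7.76 and 7.77). Both come from extraction batch 2, and they are the arrays with the highest muscle and the highest meningeal marker levels; the part of either in these levels was not tested. Over the 6 injured arrays the 6 pairs of Atf3, Sprr1a, Gap43 and Ecel1 had Pearson's r between 0.76 and 0.89 (Spearman's rho 0.66 to 0.89, exact two-sided permutation p between 0.0278 and 0.0819), a choice of genes made after the values had been seen. For each pair the 2 arrays farthest from the median of 1 of its genes were also left out, so that different pairs lost different arrays. On the few arrays left r ran over 0.65 to 1.00. In sham-operated cords r of these 6 pairs ran over 0.19 to 0.89 (exact two-sided permutation p between 0.0222 and 0.681). With 2 arrays left out in the same way it ran over -0.08 to 0.91.

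Around the 9 genes, lists of relatives and partners were compared in the same way, and each count of called genes is to be read against the 12.8% of all genes that were called higher and the 17.0% called lower, and each median against the -0.08 of all genes. Of 22 measured AP-1 and bZIP partners of Atf3 and Jun, 7 rose and 1 (Atf2, -0.30, SE 0.08) fell after injury, with a list median of 0.17. Those with the smallest p were Cebpa (1.06, SE 0.12), a factor of myeloid cells, Fos (0.81, SE 0.10), Fosl2 (0.56, SE 0.07) and Junb (0.55, SE 0.08), AP-1 subunits like Jun. For this list the difference of the injury responses was called in 3 genes, against 0.543% of all genes. All 3 had the lower response in EphA4 knockout. They were Atf1, measured by 1 probeset (-1.13, SE 0.37), Junb (-0.72, SE 0.16) and Fos (-0.68, SE 0.20), named after their values had been seen. EphA4 knockout minus wild-type was 0.63 for Atf1, 0.09 for Junb and 0.43 for Fos in sham-operated cords, none called. In injured cords it was -0.50, -0.64 and -0.25. Among the other lists of this kind Arpc1b (-0.54), Chl1 (-0.53), Npy (-0.86) and Tgm1 (-0.73) also had a called lower response. Their sham-operated genotype differences were 0.15, 0.22, 0.43 and -0.09. No gene of these 8 lists reached an adjusted p under 0.05 for the difference of the injury responses. Macrophage and microglia markers had a median of -0.33 in the same comparison, with 0 of 19 called, and their part in these values was not tested. Among injured cords Junb was also called lower in EphA4 knockout than in wild-type mice (-0.64, limma unadjusted p = 0.000214, adjusted p = 0.848), against 0.663% of all genes. In the other lists Gadd45a (-0.37), Npy (-0.43) and Tgm1 (-0.82) were called lower there, all named after their values had been seen. Among the 13 measured kinases, scaffolds and phosphatases of the DLK and JNK pathway, which phosphorylates Jun, 9 fell and none rose, with a median of -0.33. Mapk10 (-0.51, SE 0.06) and Mapk9 (-0.42, SE 0.06), which encode JNK kinases, Map3k12 (-0.48, SE 0.06), which encodes DLK, and Map2k4 (-0.44, SE 0.07) had the smallest p. Neuron markers were lower on the same arrays (13 of 17 called, median -0.36), and their part in the levels of this list was not tested.

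Of 11 Kruppel-like and SoxC relatives of Klf6 and Sox11, 3 rose, Klf10 (0.40, SE 0.07), Sox4 (0.39, SE 0.09) and Klf2 (0.31, SE 0.10), and none fell. Klf3 (0.23, SE 0.09) had the next smallest p and was not called. Among 15 stathmins and growth cone proteins, relatives of Stmn2, Gap43 and Basp1, 6 fell and 2 rose, with a median of -0.21. Nrn1, a neuritin that promotes neurite growth (-0.89, SE 0.11), and Dpysl5, a collapsin response mediator (-0.49, SE 0.07), fell, while Tubb2b, a tubulin measured by 1 probeset (0.65, SE 0.09), and Cap1, an actin-binding protein (0.50, SE 0.07), rose. Of 12 small heat shock proteins and chaperones, the kin of Hspb1, 4 rose, Hspb6 (1.99, SE 0.13), Hspb8 (0.77, SE 0.10), the endoplasmic reticulum chaperone Hspa5 (0.57, SE 0.10) and Bag3 (0.40, SE 0.08), and Hsph1 fell (-0.33, SE 0.08).

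Of 14 small proline-rich and cornified envelope genes besides Sprr1a, 1 rose: Tgm1, a transglutaminase that cross-links proteins of the envelope (3.45, SE 0.11). Among injured cords Tgm1 was lower in EphA4 knockout than in wild-type mice (-0.82, limma unadjusted p = 0.00143, adjusted p = 0.998), a gene named for this after its values had been seen. Sprr2k (0.23, SE 0.09), Sprr1b (0.19, SE 0.12) and Lor (-0.60, SE 0.25) were not called, and the 8 keratinocyte markers were called in neither direction, with a mean level of 4.03 to 4.32 in injured EphA4 knockout, 4.07 to 4.12 in injured wild-type, 4.11 to 4.22 in sham-operated EphA4 knockout and 4.14 to 4.30 in sham-operated wild-type cords. Of the 6 peptidases related to Ecel1, 3 fell, Mme (-0.58, SE 0.12), Ece2 (-0.37, SE 0.08) and Mmel1 (-0.29, SE 0.07), and none rose; Kel (-0.15, SE 0.08) was not called. Among 38 other genes described as regeneration-associated, 22 rose and 5 fell, with a median of 0.66. The smallest p were those of Arpc1b, a subunit of the actin-nucleating complex (2.57, SE 0.08), Hmox1, which degrades haem (4.86, SE 0.30), Anxa2, an annexin (2.04, SE 0.14), and Itga5, an integrin chain (1.62, SE 0.13), all of which macrophages and vessel cells also express.

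**Figure D5:**
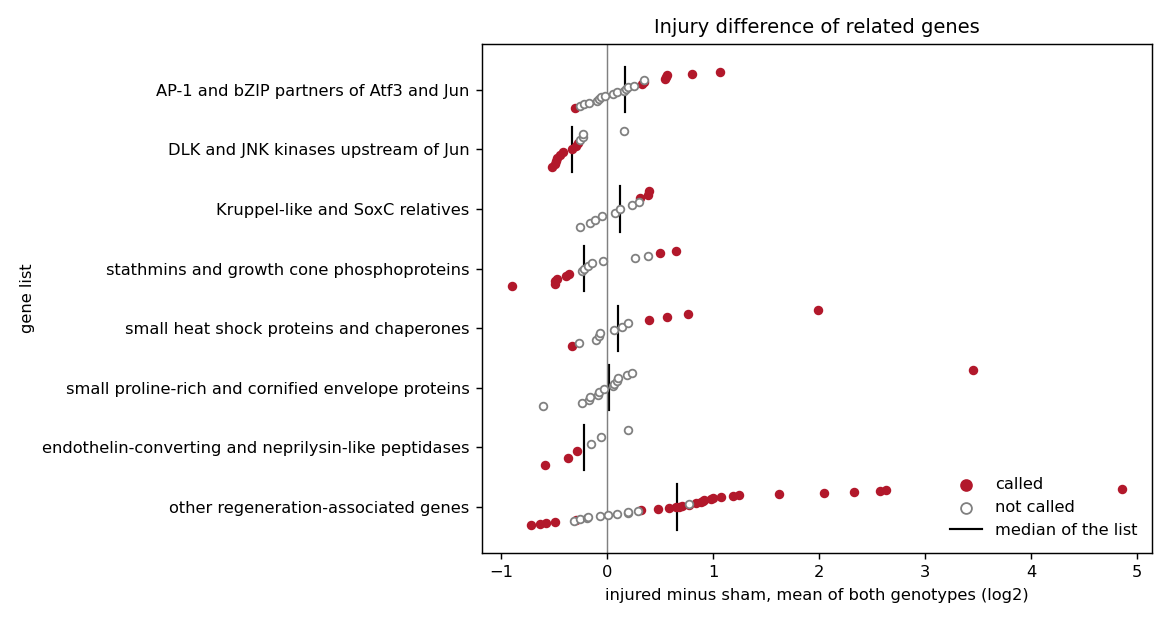
Log2 difference between injured and sham-operated cords (mean of both genotypes) for each measured gene of 8 lists related to the 10 genes; filled points passed the test and lines mark list medians. The DLK and JNK list lies mostly below 0 (median -0.33), and the list of other regeneration-associated genes mostly above (median 0.66).

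Markers of cell types moved with injury as well. Of 17 neuron markers, 13 fell and none rose (median -0.36), with list levels of 9.21 to 9.40 in injured EphA4 knockout, 9.16 to 9.24 in injured wild-type, 9.62 to 9.73 in sham-operated EphA4 knockout and 9.50 to 9.71 in sham-operated wild-type cords. All 19 macrophage and microglia markers rose (median 2.08), with levels of 8.35 to 8.89 in injured and 6.23 to 6.46 in sham-operated cords, as did 11 of 12 reactive astrocyte markers (median 2.09). Of 8 endothelial markers 5 rose and 0 fell (median 0.45). Of 9 markers of pericytes, fibroblasts and meninges 5 rose and 0 fell (median 1.17). The 7 markers of dorsal root ganglion neurons and the 8 of motor neurons held 0 genes that rose, and 0 and 3 that fell. The part of these shifts in the levels of the 9 genes and of the related lists was not tested.

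The genes whose shifts in level lay closest in size over the 12 arrays were found by the root mean square (RMS) difference of log2 levels. Each gene was taken relative to its own sham-operated wild-type mean. Genes that hardly shift are near each other by this measure whether or not they vary together. For Atf3 these were Serpina3n (RMS 0.26), a protease inhibitor of reactive astrocytes, and Tlr13 (0.28), a receptor of macrophages. Sprr1a was nearest to Atf3 itself (0.74) and to Olfml3 (0.78). Jun was nearest to Ptgs1 (0.13) and Ano6 (0.13), and Klf6 to Vwa5a (0.10) and Sept2 (0.12). For the genes that were not called or called narrowly, the nearest were Srxn1 (0.10) and Mcee (0.10) for Gap43, Sf4 (0.06) and Shf (0.06) for Stmn2, Tle1 (0.06) and Rdh12 (0.07) for Basp1, Smchd1 (0.13) and Chd7 (0.13) for Sox11, and Alg14 (0.21) and Cenpq (0.23) for Ecel1. Among the 9 genes themselves Basp1 and Stmn2 (0.18) and Jun and Klf6 (0.26) were the nearest pairs. Pearson's r of Basp1 and Stmn2 was -0.26 over the 6 injured and -0.44 over the 6 sham-operated arrays.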

How the data were processed

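Total RNA of 12 spinal cords was hybridised to Affymetrix mouse exon arrays, 1 mouse per array. The authors normalized the arrays by robust multi-array averaging (RMA) for core probesets in Partek, with mm9 named in the submitters' processing notes. The deposited values are log2 intensities per exon probeset, with a column for each mouse, mapped by the labels. Of 194262 probesets, 179614 name 1 gene and were averaged into 15830 gene levels; 1331 name several genes and 13317 none, and these were left out. For gene names GRCm38.p6 was used: 13745 symbols were found unchanged and 2046 through a synonym. No counts are held, so the number of arrays limits the precision.

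Gene levels were fitted with limma 3.58.1 (R 4.3.3) over all genes: injury effects and their difference over all 12 arrays, genotype differences within a treatment. Injury effects were called at a Benjamini-Hochberg adjusted p under 0.05, the others at an unadjusted p under 0.01, the threshold of the study, each with a fold change of at least 1.2. The fits were first tested on simulated data. The genes named are the 10 chosen, up to 4 of each related list with the smallest p, and the 2 nearest genes of each. Members and lists were chosen with earlier results of these data known. Alternatives were other summaries, filters, scalings, thresholds and tests, batch, sex or replicate number in the model, and leaving out arrays.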

Additional observations from a re-analysis of the deposited data

How the results depend on the processing

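Precision is limited by the 3 arrays, each of 1 mouse, in a group. Counts of the 9 genes called stayed within 1.5 times their main value under every alternative for the mean injury effect (4 to 5, main 5) and injury in wild-type (4 to 6, main 5), and were 0 throughout for the difference of the injury responses and for the injured genotype comparison. Injury in EphA4 knockout called 2 genes instead of 4 with extraction batch as a term, where Jun (adjusted p = 0.0504) and Sprr1a (0.108) were lost, and 2 without the 3 arrays high in meningeal or muscle markers, an alternative chosen after seeing the data, where Jun (0.0607) and Klf6 (0.0742) were lost. In both fits the effect rested on 2 EphA4 knockout arrays per treatment, and Jun stood at 0.66 and 0.76 against 0.77 in the main fit. Leaving out 1 array gave 3 to 4. Ecel1 was called in the sham-operated genotype comparison, 1 gene instead of 0, when dim genes were left out (unadjusted p = 0.00943), and leaving out 1 array gave 0 to 1. In limma's fits across all genes, Ecel1 in the mean injury effect lost its call under the median of probesets (adjusted p = 0.109), without dim probesets (0.0534), with batch (0.147) and at the stricter unadjusted threshold, and in wild-type cords under the median (0.0845) and without dim probesets (0.0542). The replicate numbers did not pair the mice (18 same-numbered pairs, correlations of deviations -0.30 to 0.22). With the replicate number as a block, Gap43 in wild-type cords was called (0.33, adjusted p = 0.0426), 6 genes in place of 5, and no other gene changed its call.

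Over all genes, injury in wild-type was called in 3809 genes and in 2481 with the median of probesets and 2519 without injured wild-type replicate 3; injury in EphA4 knockout in 3242, 1970 with the median and 1381 without the 3 arrays. The sham-operated genotype comparison called 213 genes, 114 without dim genes, 92 by the methods' t-test and 1 at an adjusted p under 0.05; the injured one 126, 202 with batch, 209 in 1 fit of all arrays, 83 by the methods' t-test, 72 without injured wild-type replicate 3 and 0 at an adjusted p under 0.05. The difference of responses called 167, 287 with batch, 340 without injured EphA4 knockout replicate 3 and 0 at an adjusted p under 0.05. Centring arrays on their median moved the median injury difference of all genes to -0.10, against -0.08 in the values as deposited. Direction was compared for the 9 measured genes only, and none of them changed its direction in a comparison where it was called.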
